A study of Rattus norvegicus with 2 samples.

Results

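Receptors through which GABA, glutamate, glycine, extracellular ATP and serotonin act on nerve cells were examined in rat sympathetic neurons. They were taken as every probe set whose annotation named exactly 1 gene and whose symbol belonged to the GABA-A, GABA-B, AMPA, kainate, delta, NMDA, metabotropic glutamate, glycine, P2X or 5-HT3 receptor genes. This gave 79 of 15866 probe sets, for 54 of 10411 genes, in 10 families. Subunit genes without such a probe set were not analysed here. The members were chosen by name, without a cut on any value, but with earlier results of these data known.

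Total RNA of sympathetic neurons was hybridised to 1 Affymetrix Rat Expression Set 230A array per condition. The first array, here called alone, held RNA of neurons cultured without target cells. The other, here called co-culture, held RNA of neurons that, per its title and source name, had been grown with myocytes, the muscle target; its description field instead names neurons grown alone, and that conflict could not be settled. The neurons, less adherent than the flat cells of the dish, were washed off with EDTA. No source used here gives the strain, the animals' age, the origin of the myocytes or the time in culture. With 1 array per condition no difference has a replicate check or a test, and each value compares these 2 arrays, not the conditions.

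GABA-A, glycine and 5-HT3 receptors are pentameric channels of the same superfamily as the nicotinic receptor, which carries fast transmission in sympathetic ganglia. AMPA, kainate, delta and NMDA subunits form tetrameric glutamate-gated channels, P2X subunits form trimeric channels opened by ATP, and GABA-B and metabotropic glutamate receptors signal through G proteins. Rat sympathetic neurons are known to respond to serotonin through 5-HT3 receptors and to ATP through P2X receptors, and GABA depolarises them.

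Most of these receptor genes had low signals on both arrays. The median intensity over all probe sets was 185.7 on the alone array and 175.0 on the co-culture array. Only 12 of the 79 receptor probe sets (15.2%), from 9 of 54 genes (16.7%), reached the median of their array in 1 or both arrays, against 52.4% of all probe sets and 61.2% of all genes with a single symbol. At the other end, 29 receptor probe sets (36.7%) lay under the floor of 39.6, the 20th percentile of all values, in both arrays, against 17.1% of all probe sets. Another 38 lay between these limits. The 9 genes were Gabbr1, Gabbr2, Grik5, Grin1, P2rx2, P2rx3, P2rx4, Htr3a and Htr3b. No detection call was used, so a low signal is not read as absence of the RNA, and signals of different probe sets do not measure relative RNA amounts.

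**Figure D1:**
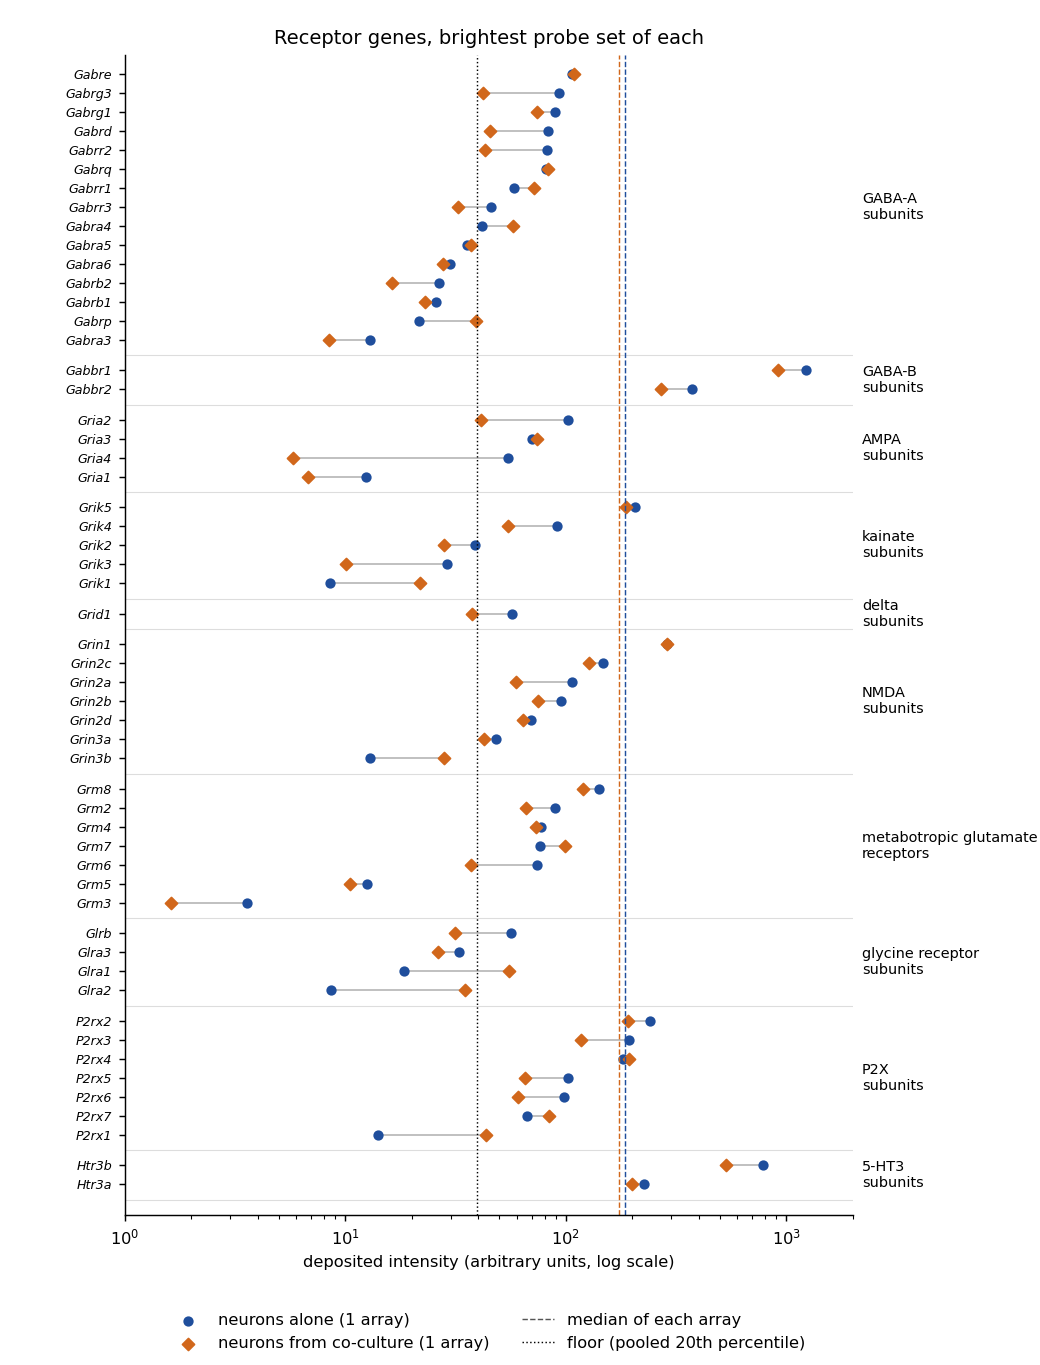
Deposited intensity (log scale) of the brightest probe set of each of the 54 receptor genes, by family; circles are the alone array, diamonds the co-culture array, dashed lines the array medians (185.7 and 175.0) and the dotted line the floor (39.6). Both GABA-B and both 5-HT3 subunits lie to the right of the medians on both arrays, and every GABA-A, AMPA, delta, metabotropic glutamate and glycine receptor gene lies to the left of them.

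The clearest pattern among the brighter members was lower signal in neurons from co-culture for both subunits of the GABA-B receptor and for Htr3b. In RNA of a whole cell preparation, fewer neurons and less RNA per neuron cannot be told apart, and the markers of sympathetic neurons, given further on, were lower as well (median log2 ratio -0.40). Ratios are given as log2 of co-culture over alone after values under the floor were raised to it, and a probe set counted as above the filter if it reached its array's median in at least 1 array. Of the 12 receptor probe sets above the filter, 10 were lower and 2 higher in co-culture, with a median log2 ratio of -0.45; over all 8308 probe sets above the filter the median was -0.02, and 54% were lower. The 12 were not independent, since 3 were of Gabbr1 and 2 of Htr3b. Counting the brightest probe set of each of the 9 genes, 7 were lower and 2 higher, with a median of -0.33. A technical spread was available from pairs of probe sets of the same gene: for the ratio of a single probe set, the SD was 0.36, 0.29, 0.28 and 0.21 from the dimmest to the brightest of 4 equal groups of 749 genes. By this measure 7 of the 12 were lower by more than 1 SD, against 15.8% of all probe sets above the filter, none was higher by more than 1 SD, against 10.8%, and 5 were within it. The 7 were the probe sets of Gabbr1, Htr3b, Gabbr2 and P2rx3 among the 12, so they stand for fewer genes. The filter itself favours some differences. Gabbr1 probe set 1369371_a_at and P2rx3, both among the 7, passed it through the alone array only, and P2rx4 through the co-culture array only.

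Of the 12 probe sets, 1 of Gabbr1 was 2-fold or more lower, where 1.16% of all probe sets above the filter were that far apart (0.818% lower and 0.337% higher, or 68 and 28 probe sets). After quantile normalization these 68 and 28 became 53 and 36. The Gabbr1 probe set counted here passed the filter through the alone array only, with 323.6 alone and 100.1 in co-culture. The 9 receptor probe sets above the median in both arrays all differed by less than 2-fold. The background share was not computed for such probe sets alone. With no filter, 3 receptor probe sets (of Gabbr1, Gria2 and Gabrg3) were at least 2-fold lower and 0 higher, while 1.86% of all probe sets were that far apart (1.34% lower and 0.517% higher). Over all 79 receptor probe sets, whatever their signal, 38 were lower in co-culture, 12 were higher and 29 were under the floor on both arrays, where values have no order. Over the whole array 48.3% were lower, 34.6% higher and 17.1% under the floor on both. The share of lower receptor probe sets was near the background only because 36.7% of them were under the floor on both. Where values had an order, 38 receptor probe sets were lower and 12 higher, against 7668 lower and 5487 higher over the whole array. Above the filter the whole array gave 4487 lower and 3821 higher, so its dimmer probe sets leaned lower more often. Since 67 of the 79 receptor probe sets were below the filter, part of this contrast may come with low signal. A background of like signal was not computed.

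**Figure D2:**
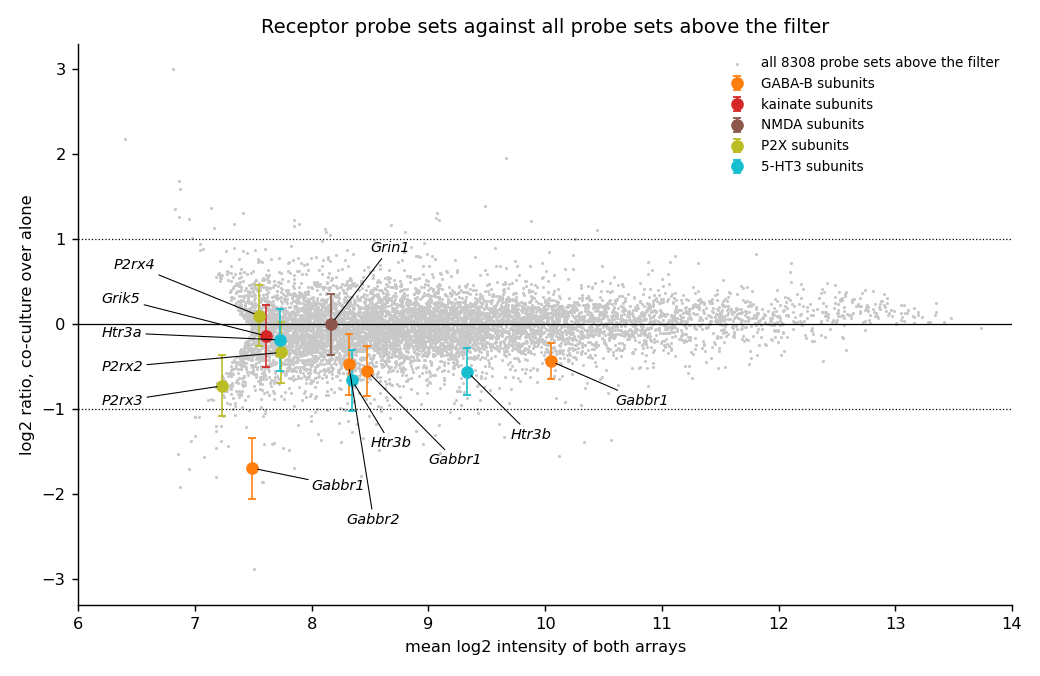
Log2 ratio of co-culture over alone (vertical axis) against the mean log2 intensity of both arrays (horizontal axis) for the 12 receptor probe sets above the filter, coloured by family, over all 8308 probe sets above the filter in grey; bars are 1 technical SD from pairs of probe sets of a gene, and dotted lines mark 2-fold. Among the receptor probe sets, 1 of Gabbr1 lies beyond the lower dotted line, and those of P2rx4 (0.10) and Grin1 (0.00) are not below zero.

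Gabbr1 encodes the subunit of the GABA-B receptor that binds GABA, and Gabbr2 the subunit that couples it to G proteins and carries it to the cell surface; the working receptor needs both. Gabbr1 was measured by 5 probe sets, of which 4 were lower in co-culture and 1 was under the floor on both arrays. The brightest, 1388039_a_at, had an intensity of 1232 alone and 912 in co-culture, at percentiles 91.8 and 88.0 of the arrays. That was 1.35-fold lower (log2 ratio -0.43, technical SD 0.21). Probe set 1375720_at went from 431 to 294, a log2 ratio of -0.55 with a technical SD of 0.29. Probe set 1369371_a_at went from 324, above the array median, to 100.1, below it, and was 3.23-fold lower (log2 ratio -1.69, technical SD 0.36). The dim probe set 1388030_a_at had 134.6 and 70.8, and 1369372_at had 19.3 and 9.75, both under the floor. The 4 above the floor thus shared a direction but not a size, and the signals of the 5 on the same alone array ran from 19.3 to 1232. The ending _a_at marks probe sets that match several transcripts of a gene, and which transcript each one reports was not analysed here.

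Gabbr2 was lower on both of its probe sets. The brighter, 1387383_at, had 375 alone and 271 in co-culture, 1.39-fold lower (log2 ratio -0.47, technical SD 0.36). The other, 1368952_at, had 53.6 and 46.6, below the median on both arrays, with a log2 ratio of -0.20. Taking the brightest probe set of each, Gabbr1 and Gabbr2 differed between the arrays by similar amounts. Kctd12, an auxiliary subunit that attaches to Gabbr2 and shapes the timing of the response, was lower too. Its signal was 1762 alone and 911 in co-culture, 1.94-fold lower (log2 ratio -0.95, technical SD 0.21).

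**Figure D3:**
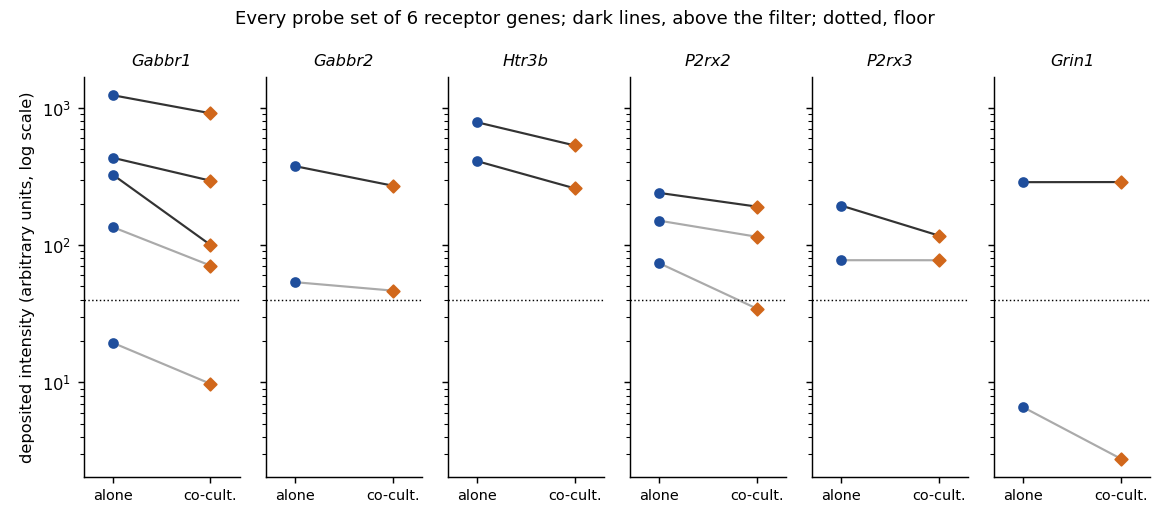
Deposited intensity (log scale) on the alone array (circle) and the co-culture array (diamond) for every probe set of the 6 receptor genes that have several probe sets and at least 1 above the filter; dark lines join probe sets above the filter, grey lines the others, and the dotted line is the floor (39.6). The 4 lines of Gabbr1 above the floor, both of Gabbr2, both of Htr3b and all 3 of P2rx2 slope down, while 1 line each of P2rx3 and Grin1 is level; lines wholly under the floor have no order.

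The 5-HT3 receptor is the serotonin-gated cation channel; Htr3a encodes the subunit that can form a channel alone, and Htr3b one that needs Htr3a as a partner. All 3 probe sets of these genes were above the median on both arrays. Htr3b probe set 1371077_at had 783 alone and 531 in co-culture, at percentiles 85.7 and 78.2, 1.47-fold lower (log2 ratio -0.56, technical SD 0.28). Its other probe set, 1387602_a_at, had 408 and 259, 1.58-fold lower (log2 ratio -0.66, technical SD 0.36). The probe sets of Htr3b thus differed by similar amounts. Htr3a had 225.6 and 198.7, 1.13-fold lower, a log2 ratio of -0.18 that was within its technical SD of 0.36.

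Promoters are shown for the receptor genes with a probe set past the 75th percentile of an array, Gabbr1 and Htr3b, and for the family partner Gabbr2. The other partner, Htr3a, had no promoter among the sequences used. A link between these promoters and the differences between the arrays was not tested. Sequences are those of RefSeq on GRCr8, from 250 bases before to 50 after the annotated start; 39 of the 54 receptor genes had one. The motifs searched, on both strands, were the GC box GGGCGG bound by Sp1, the cyclic AMP response element TGACGTCA, the TATA motif TATAAA, and TTCAGCACC, a half-site of the RE1 element bound by the repressor REST. Capitals mark matches, all of them to the GC box or its reverse complement CCGCCC. Those of Gabbr1 (chr20:1499187-1499486, minus strand), Gabbr2 (chr5:66083646-66083945, minus strand) and Htr3b (chr8:58204890-58205189, minus strand) read 5′ to 3′:
Gabbr1: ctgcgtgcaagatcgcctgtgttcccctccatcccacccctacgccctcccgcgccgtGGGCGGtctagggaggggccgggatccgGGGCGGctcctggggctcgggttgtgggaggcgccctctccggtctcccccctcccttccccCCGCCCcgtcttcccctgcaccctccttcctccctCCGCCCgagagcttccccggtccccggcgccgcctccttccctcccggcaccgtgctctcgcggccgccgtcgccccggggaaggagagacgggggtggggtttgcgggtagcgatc
Gabbr2: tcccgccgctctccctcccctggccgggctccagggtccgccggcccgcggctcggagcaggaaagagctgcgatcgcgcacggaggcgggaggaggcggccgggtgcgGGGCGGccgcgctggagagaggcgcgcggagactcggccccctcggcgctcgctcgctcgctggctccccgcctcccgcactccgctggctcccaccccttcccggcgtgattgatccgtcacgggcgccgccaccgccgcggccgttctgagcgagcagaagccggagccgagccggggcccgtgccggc
Htr3b: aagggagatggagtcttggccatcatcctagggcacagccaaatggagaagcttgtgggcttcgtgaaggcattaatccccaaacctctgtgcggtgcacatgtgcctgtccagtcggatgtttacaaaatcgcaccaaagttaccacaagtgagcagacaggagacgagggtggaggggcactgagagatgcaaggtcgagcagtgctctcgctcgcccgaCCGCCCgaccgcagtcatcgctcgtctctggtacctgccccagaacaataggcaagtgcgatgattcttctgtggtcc
The Gabbr1 window held 4 GC boxes and 32 CpG dinucleotides at a G+C content of 75%, the Gabbr2 window 1 and 47 at 78.7%, and the Htr3b window 1 and 15 at 56%.

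Among the 7 matched genes with a probe set above the filter, 5 promoters held the GC box (Gabbr1, Gabbr2, Grik5, Grin1 and Htr3b; not P2rx3 or P2rx4). It was found in 12 of the 32 promoters of dimmer receptor genes (37.5%) and in 34.9% of 27457 promoters of the same length. The median number of CpG dinucleotides was 21 in the promoters of the 7, 9.5 in those of the 32 and 7 over all promoters. TATAAA was found in 3 of the 39 (Gabra3, Gabrr2 and Glra2), against 14.3% of all promoters. TGACGTCA and TTCAGCACC were in 0 of the 39, against 1.91% and 0.379% of all promoters. These counts describe letters in a window of 300 bases and were not tested.

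P2X subunits fell between the bright and the dim families, with 3 of 7 genes above the filter and no probe set under the floor on both arrays. P2rx2, a main subunit of the slowly desensitising ATP channels of autonomic neurons, was lower on all 3 of its probe sets. Probe set 1387578_a_at had 239.6 alone and 190.6 in co-culture, 1.26-fold lower (log2 ratio -0.33, technical SD 0.36). Probe sets 1369475_x_at and 1369474_a_at had 150.4 and 114.9, and 73.7 and 34.5, all below the medians and the last under the floor. Their log2 ratios were -0.39 and -0.89. P2rx2 thus had 1 direction on 3 probe sets, with the brightest difference inside the technical spread.

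P2rx3, the subunit best known from sensory neurons, gave a mixed result. Probe set 1368667_at had 193.5 alone, just above the median, and 117.2 in co-culture, 1.65-fold lower (log2 ratio -0.72, technical SD 0.36). Its other probe set, 1388077_a_at, had 77.5 on both arrays. The lower value of P2rx3 therefore rests on a single probe set.

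P2rx4, found in many tissues and prominent in macrophages, was the only receptor gene above the filter that was higher in co-culture under every scaling tried. It had 180.7 alone and 193.9 in co-culture, a log2 ratio of 0.10 that was within its technical SD of 0.36. P2rx7, the ATP channel of immune cells and glia, had 66.3 and 84.3, below the medians (log2 ratio 0.35). The 16 macrophage marker genes measured had a summed intensity of 3620 alone and 3066 in co-culture, and their part in these values was not tested. Of the remaining P2X subunits, P2rx5 had 102.2 and 65.5 on its brighter probe set, P2rx6 98.0 and 61.0, and P2rx1 14, under the floor, and 43.5.

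Glutamate receptors gave 2 probe sets above the filter out of 33, neither different between the arrays beyond the technical spread. Grin1, the subunit that every NMDA receptor contains, had 287 on both arrays (286.99 and 287.49, log2 ratio 0.00). Its sign depended on the scaling, from -0.03 after scaling to the spiked controls to 0.09 after median scaling. Its other probe set was under the floor, at 6.57 and 2.78. The NMDA subunits that complete the channel were all below the medians. The brightest of them, Grin2c, had 147.7 and 126.7, and the dimmest, Grin3b, had 12.9 and 27.9.

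Grik5, a kainate subunit with high affinity that works only together with Grik1, Grik2 or Grik3, had 204.8 alone and 186.4 in co-culture, a log2 ratio of -0.14 with a technical SD of 0.36. Its partners were under the floor on both arrays: Grik1 had 8.55 and 21.8, Grik2 38.6 and 28.0, and Grik3 28.8 and 10.0. Grik4, the other subunit of the Grik5 kind, had 90.7 and 54.7. Kainate subunits thus gave a signal near the median for 1 gene of 5.

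The AMPA subunits were dim in both arrays, with no probe set above the filter. Gria2, the subunit that makes AMPA channels impermeable to calcium, had 101.9 alone and 41.1 in co-culture on probe set 1368401_at, 2.48-fold lower (log2 ratio -1.31). Both values were below the medians, and its other probe set had 23.5 and 21.5, under the floor. With the floor raised to the 40th percentile, 119.2, its ratio was 0. Gria4 had 54.6 and 5.82, where the second value was under the floor, and the ratio was -0.46. Gria3 had 70.1 and 74.0 on its brighter probe set and 5.74 and 2.00 on the other, and Gria1 had 12.4 and 6.77, both of the latter pairs under the floor. The delta subunit gene Grid1 had 57.2 and 37.4.

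No metabotropic glutamate receptor gene reached the median, among 11 probe sets of 7 genes. Grm8, a receptor that lowers cyclic AMP, was the brightest at 141.6 alone and 119.9 in co-culture, and its other probe sets had 61.0 and 61.2, and 4.0 and 5.65. Grm3 was the dimmest at 3.60 and 1.62.

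The GABA-A subunits were the largest family, with 19 probe sets of 15 genes, and none reached the median. Their intensities ran from 7.02 to 106.8 alone and from 8.37 to 109.1 in co-culture, and 10 of 19 were under the floor on both arrays. Gabre, the epsilon subunit, was the brightest at 106.8 and 109.1 (log2 ratio 0.03), while its other probe set was the dimmest on the alone array at 7.02. Gabrg3, a gamma subunit, had 93.2 and 42.2, 2.21-fold lower (log2 ratio -1.14), again with both values below the medians and a ratio of 0 with the higher floor. Gabrd, the delta subunit of receptors outside synapses, had 82.6 and 45.5, and Gabrr2, a rho subunit, 82.2 and 42.8 on its brighter probe set. Gabra4 (41.6 and 57.4) and Gabrr1 (58.0 and 71.4) went the other way.

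The glycine receptor subunits had low signals throughout, from 3.40 to 56.2 over both arrays, with 4 of 6 probe sets under the floor on both. Glrb, the subunit that ties glycine receptors to the anchor gephyrin, had 56.2 and 31.6. Glra1 had 18.5 and 55.5 on one probe set, and 27.3 and 14.3, both under the floor, on the other. The dimmest, Glra2 probe set 1387696_a_at, had 4.40 and 3.40.

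Genes that anchor, transport or supply these receptors were described from lists of their own, by the brightest probe set of each gene. Of 17 measured genes for anchoring and trafficking of GABA-A, GABA-B and glycine receptors, 12 (70.6%) were above the filter, near the 61.2% of all genes. Of these 12, 10 were lower and 2 higher (median log2 ratio -0.26), where 54% of all probe sets above the filter were lower. Gabarap, which links GABA-A receptors to microtubules and also acts in autophagy, was the brightest at 2807 alone and 2862 in co-culture. After Kctd12 followed Clptm1, which retains GABA-A receptors in the cell (1338 and 1128), and Gabarapl1 (975 and 853). Gphn, the gephyrin gene, had 193.7 and 160.1, and was named after its value was seen.

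Of 30 measured genes for scaffolds and auxiliary subunits of glutamate receptors, 13 (43.3%) were above the filter, against 61.2% of all genes. Of these 13, 10 were lower and 3 higher (median -0.16), where 54% of all probe sets above the filter were lower. The brightest were Olfm1, an olfactomedin secreted by neurons (4072 and 3183), Grina (1982 and 1672), the pentraxin receptor gene Nptxr (755 and 575) and the scaffold gene Dlg1 (573 and 581). Named after their values were seen, the genes most different above the filter were 2 lower and 1 higher. Dlg4, the PSD-95 scaffold, was 1.78-fold lower (372 and 209), and Cnih2, an AMPA receptor auxiliary subunit, had 391 and 233. Dlgap1 was higher on its brightest probe set, at 153.6 and 211.7. Its other probe sets, below the filter, were lower, with 112.5 and 64.0 (log2 ratio -0.81), and 43.9 and 38.3. On the brightest probe sets the log2 ratios of Dlg4, Cnih2 and Dlgap1 were -0.83, -0.75 and 0.46, each with a technical SD of 0.36. Nsf, an ATPase of membrane fusion that binds AMPA receptors, is on both lists. Neither list held a gene above the filter that was 2-fold apart.

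Genes that make, take up or break down the transmitters went both ways. Of 25 measured, 9 (36%) were above the filter, against 61.2% of all genes. Of these 9, 4 were lower and 5 higher (median 0.11), where 54% of all probe sets above the filter were lower. The brightest were Glud1, glutamate dehydrogenase (1781 and 1719), Dbi, the diazepam-binding inhibitor that acts on GABA-A receptors (1383 and 1899), the serine hydroxymethyltransferase gene Shmt2, which makes glycine (1068 and 1156), and the glutamine transporter gene Slc1a5 (759 and 730). The GABA synthesis genes Gad1 (34.8 and 36.5 on its brighter probe set) and Gad2 (12.4 and 32.2), named after their values were seen, were under the floor.

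Of 17 measured genes of ATP signalling other than P2X, 6 (35.3%) were above the filter, against 61.2% of all genes. Of these 6, 3 were lower and 3 higher (median 0.12), where 54% of all probe sets above the filter were lower. The brightest were Adk, adenosine kinase (1169 and 1058), Ada, adenosine deaminase (347 and 427), Nt5e, which makes adenosine from AMP outside the cell (315 and 401), and P2ry6, a receptor for UDP (276 and 357). Adk was lower on its brightest probe set (log2 ratio -0.14, technical SD 0.21). Its other probe set, also above the filter, was higher, at 451 and 577 (log2 ratio 0.36, technical SD 0.28). No gene above the filter on either of these lists was 2-fold apart.

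The nicotinic receptor subunits, the ganglionic family of the same channel superfamily, showed the same mix of few bright and many dim genes. Of 11 genes, 3 (27.3%) were above the filter, against 61.2% of all genes. These 3 were lower in co-culture (median -0.40), where 54% of all probe sets above the filter were lower. Another 5 (45.5%) were under the floor on both arrays, against 17.1% of all probe sets. Chrna3, the main subunit of ganglionic transmission, had 1346 and 1019, and the other subunits above the filter, Chrnb4 and Chrna7, had 448 and 256, and 235.3 and 181.4. Chrna3 is also among the neuron markers below. The difference between this family and the receptors described here was not tested.

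**Figure D4:**
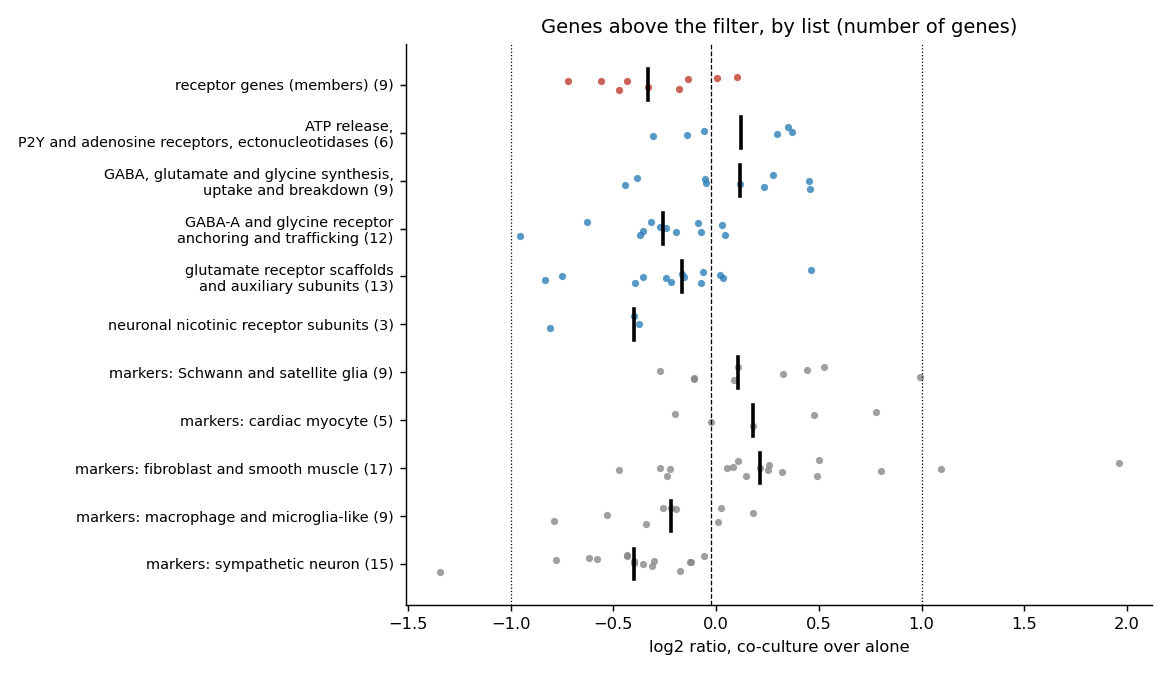
Log2 ratio of co-culture over alone for the genes above the filter in each list (1 point per gene, brightest probe set; number of genes in parentheses); black bars are medians, the dashed line is the median of all probe sets above the filter (-0.02), and dotted lines mark 2-fold. The receptor genes (median -0.33), nicotinic subunits (-0.40) and sympathetic neuron markers (-0.40) lie left of the dashed line, and fibroblast and smooth muscle markers (0.21) right of it.

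The markers of sympathetic neurons were strong on both arrays. All 15 measured markers were above the median on both arrays and lower in co-culture, with log2 ratios from -1.34 to -0.06 and a median of -0.40. Their summed intensity was 39235 alone and 31209 in co-culture. The 17 fibroblast and smooth muscle markers, none below the median, had sums of 58346 and 63812, with 13 genes higher and 4 lower. The 13 glial markers had sums of 8815 and 9089, with 7 genes higher and 5 lower. The largest terms of these sums were Pmp22 (3141 and 2916) and Ngfr (2453 and 2275), both slightly lower. S100b had the highest log2 ratio of the glial markers, 0.99 (263 and 524), and Cnp had 835 and 1134. The 16 cardiac myocyte markers had sums of 1951 and 2406 with 11 below the medians, and the 8 endothelial markers, all below the medians, 547 and 416. The part of these cell types in the receptor values was not tested.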

How the data were processed

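RNA of 2 samples, 1 per condition, was hybridised to 1-colour Affymetrix arrays. The deposited intensity values are linear, 1 per probe set and array. The series' design text names dChip 1.3 for quantification, and the submitters' processing notes name MAS5; which gave the deposited values, and their scaling, is not given in the sources used here. They were used as deposited, without 57 control probe sets; the number of arrays limits precision.

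The platform annotation gave 12783 probe sets 1 symbol, 312 several and 2771 none. Values under the pooled 20th percentile (39.6) were raised to it before log2. The technical SD was the root mean square difference in log2 ratio between a gene's brightest pair of probe sets, over the square root of 2. No test or p-value was computed. By rule, named genes were members above the filter or 2-fold apart, each family's brightest and dimmest gene, and up to 4 of the brightest in a partner list; other genes were named after their values were seen. Members and lists were chosen with earlier results of these data known. Alternatives were other scalings, floors, filters and probe set rules. Python 3.11.15, pandas 2.3.3 and statsmodels 0.14.6 (lowess span 0.3) were used, and the calculations were tested on simulated data.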

Additional observations from a re-analysis of the deposited data

How the results depend on the processing

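With the array median as filter, the count of 1 receptor probe set at 2-fold was the same under quantile normalization, median scaling, lowess, a scaling by the spiked controls that was added after seeing the data, both other floors and a pseudocount. It was 0 at a filter of the 75th percentile, which left 2 receptor probe sets, and 3 with no filter, all lower. The median log2 ratio of -0.45 above the filter ran from -0.48 to -0.37 over the scalings. It was -0.33 for the brightest probe set of each gene, -0.34 for each gene's mean, and -0.33 when the filter was the 25th percentile. At that filter the median of all probe sets of the array above it was -0.05. Over all 79 probe sets the median of 0.00 reflects values at the floor: it was -0.27 with no floor, -0.13 with a pseudocount and -0.10 with the brightest probe set of each gene. Part of that shift was array-wide, since the median of all probe sets was -0.07 with no floor and -0.05 with a pseudocount. The 9 of 54 genes at the array median became 2 of 54 at the 75th percentile. Without probe sets for several transcripts they were 5 of the 45 genes left. Of the 12 receptor probe sets, 10 were lower under each scaling except that by the spiked controls, where 11 were. Of 224 values of 32 named receptor probe sets under alternatives, 204 stayed within the technical SD or on the same side of 2-fold, and none of those past 2-fold changed sign. Another 8 moved by more than the SD, 6 passed 2-fold with no floor (1 probe set each of P2rx1, P2rx2, Grin1, Gria3, Grik1 and Grm3, each with a value under the floor), and 6 fell below it, all of Gria2 or Gabrg3. Part of the 204 values could not change, so their number is not a measure of stability. Probe sets under the floor on both arrays stayed at 0 under the scalings and the higher floor. Leaving out the floor could not alter a probe set above it on both arrays. No paired analysis was possible because each condition had 1 array.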
